A study of Mus musculus with 32 samples.

Results

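Extracellular ATP is sensed in the bladder by P2X receptors, which are ATP-gated cation channels, and by P2Y receptors, which couple nucleotides to G proteins. ATP released by parasympathetic nerves contracts the detrusor muscle through P2X1, while ATP released by the stretched urothelium acts on neighbouring cells and on sensory endings. Ectonucleotidases on the cell surface end the signal, CD39 by cutting ATP and ADP down to AMP and CD73 by cutting AMP to adenosine. The genes described here are 10 of the 32285 genes counted. They were chosen by name, as the P2X channel genes P2rx1, P2rx3, P2rx4, P2rx5 and P2rx7, the P2Y receptor genes P2ry1, P2ry2 and P2ry6, and the ectonucleotidase genes Entpd1 (CD39) and Nt5e (CD73).

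Total RNA was sequenced from 32 whole bladders of female C57BL/6 mice from the NIA aging colony, 1 bladder per library. Young bladders were from mice of 2 months (n = 6), middle-aged bladders from mice of 10 months (n = 5) and untreated old bladders from mice of 26 months (n = 6), none of them gavaged. The other old mice, also 26 months old, received a monthly oral gavage of 3 days between 21 and 26 months, with water (n = 5), with vehicle (n = 4), a mix of Phosal, polyethylene glycol and ethanol, or with the senolytic pair D + Q (n = 6), which is dasatinib at 5 mg/kg/day plus quercetin at 50 mg/kg/day in that vehicle. The comparisons ask how each gene differed with age and whether gavage with water, vehicle or D + Q moved it within old mice.

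Counts summed to between 15088372 and 52650259 per bladder, and the shallowest library was young replicate 3. In that bladder P2rx3, P2rx7 and Nt5e all lay outside the range of the other young bladders, so it is named below where it matters. No 2 libraries were identical, and each correlated with the median of its group at r of at least 0.974. No sequencing batch is labelled, so no within-batch values can be given. The labelled tissue was checked against its markers, and those of detrusor smooth muscle summed to at least 26011 CPM (counts scaled to the library size and to trimmed mean of M values factors) and those of urothelium to at least 3650 CPM in every bladder. Each of the 10 genes passed the filter on low counts in all 11 comparisons. The lowest count was 4, for P2rx3 in a young bladder.

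The 10 genes lie in 7 regions of mm10, and the P2X and P2Y genes partly neighbour each other. P2rx7 (ENSMUSG00000029468, chromosome 5, 122643911 to 122691432) and P2rx4 (ENSMUSG00000029470, chromosome 5, 122707544 to 122729738) lie on the plus strand with 16111 bases between them. P2rx1 (ENSMUSG00000020787, chromosome 11, 72999103 to 73015200) and P2rx5 (ENSMUSG00000005950, chromosome 11, 73160421 to 73172685) lie on the plus strand with 145220 bases between them. P2ry6 (ENSMUSG00000048779, chromosome 7, 100937630 to 100974649) and P2ry2 (ENSMUSG00000032860, chromosome 7, 100996568 to 101012866) lie on the minus strand with 21918 bases between them. The others stand alone: P2ry1 (ENSMUSG00000027765) on chromosome 3 from 61002795 to 61008982, P2rx3 (ENSMUSG00000027071) on chromosome 2 from 84998583 to 85037462, Entpd1 (ENSMUSG00000048120) on chromosome 19 from 40612366 to 40741602, and Nt5e (ENSMUSG00000032420) on chromosome 9 from 88327197 to 88372092. Exons of P2rx3 overlap Ssrp1 and those of P2ry1 overlap Gm37035, both on the opposite strand. The strandedness of the counting is not given in the sources used here, so the counts of P2rx3 and P2ry1 are uncertain.

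Of the P2X genes listed here that differed between untreated old and middle-aged bladders in the tests below, all but P2rx5 had a matched promoter. The sequences upstream of these 3 are shown so that the neighbours P2rx7 and P2rx4 can be set beside P2rx1. Each runs from 250 to 51 bases before the RefSeq transcript start, 5′ to 3′ on the plus strand of GRCm38.p6 (mm10), at chr11:72998895-72999094 for P2rx1, chr5:122643677-122643876 for P2rx7 and chr5:122707294-122707493 for P2rx4. Capitals mark matches, on either strand, to a CArG box, an E-box (CANNTG), a GC box (GGGCGG), the letters TATAAA, an AP-1 motif (TGANTCA) or a PU.1 core (GAGGAA). RefSeq promoters were matched for 7 of the 10 genes, all but P2rx3, P2rx5 and P2ry6. For P2rx7 RefSeq gives 2 starts, and the upstream one is printed.
P2rx1: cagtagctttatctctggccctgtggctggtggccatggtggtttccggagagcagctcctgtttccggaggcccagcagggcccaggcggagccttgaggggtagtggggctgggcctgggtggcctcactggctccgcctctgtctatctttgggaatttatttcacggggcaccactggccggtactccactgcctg
P2rx7: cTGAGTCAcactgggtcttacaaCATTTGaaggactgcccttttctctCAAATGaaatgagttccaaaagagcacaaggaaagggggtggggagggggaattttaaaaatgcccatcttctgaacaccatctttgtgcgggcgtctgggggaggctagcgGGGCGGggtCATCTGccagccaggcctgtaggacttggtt
P2rx4: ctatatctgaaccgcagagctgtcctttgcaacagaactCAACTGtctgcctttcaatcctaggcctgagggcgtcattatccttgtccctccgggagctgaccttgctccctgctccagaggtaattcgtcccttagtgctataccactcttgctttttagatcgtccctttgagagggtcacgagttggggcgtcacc
The printed window of P2rx7 held 3 E-boxes, 1 GC box and 1 AP-1 motif, and that of its second start, at chr5:122650133-122650332, held 2 E-boxes and no other match. P2rx4 held 1 E-box, and P2rx1 held no match to these letters. Of 32851 promoter windows of the same length, 59.0% held an E-box, 24.6% a GC box, 5.57% an AP-1 motif, 18.8% a PU.1 core, 9.14% TATAAA and 1.16% a CArG box. These matches describe letters only.

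Compared per length, in TPM (counts divided by summed exon length and scaled to the library), P2rx1 dominated the group. Its level over all 32 bladders was 1027 ± 148 TPM (SD, n = 32), above Entpd1 at 109 ± 11.0 TPM in 32 of 32 bladders. Nt5e followed at 36.5 ± 4.61 TPM, again above the next gene in 32 of 32 bladders. P2rx4 (21.4 ± 1.82 TPM), a channel of macrophages and endothelium that traffics through lysosomes, and P2rx7 (21.3 ± 2.81 TPM), the low-affinity channel that links ATP to inflammasome activation, did not separate, since P2rx4 was the higher in 17 of 32 bladders. P2ry6 (16.2 ± 2.83 TPM), the UDP receptor of myeloid cells, stood above P2ry2 (12.4 ± 2.16 TPM), the ATP and UTP receptor of epithelia, in 29 of 32 bladders. P2rx5 (5.47 ± 1.37 TPM) and P2ry1 (5.25 ± 0.908 TPM), the ADP receptor, did not separate either, with P2rx5 higher in 16 of 32. P2rx3, the channel of sensory neurons whose cell bodies lie outside the bladder, was last at 0.681 ± 0.389 TPM.

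**Figure D1:**
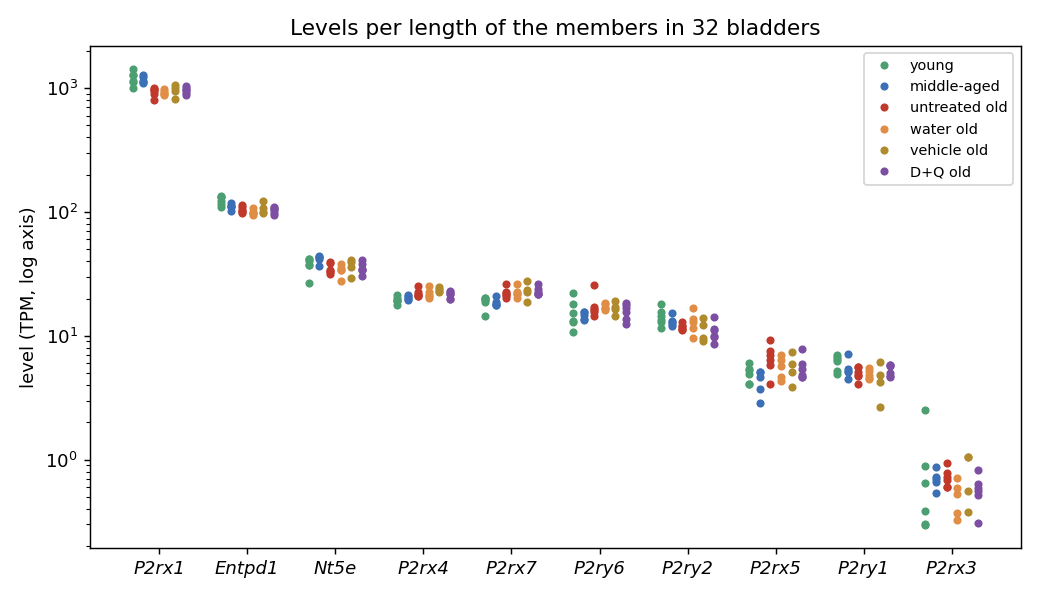
Level of each gene in TPM (log axis) in every bladder, coloured by group, with the genes ordered by their mean over 32 bladders. P2rx1 sits near 1027 TPM, above every other gene in every bladder, and P2rx3 lies below the rest.

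P2rx1 made up 95.6% ± 0.343 (SD, n = 5) of the summed TPM of the 7 P2X genes in middle-aged bladders and 94.2% ± 0.564 (SD, n = 6) in untreated old bladders. The share of P2rx4 was 1.67% ± 0.145 in middle-aged and 2.24% ± 0.206 in untreated old bladders, and that of P2rx7 was 1.52% ± 0.183 and 2.26% ± 0.215. The lowest old share of both P2rx4 (1.99%) and P2rx7 (2.04%) lay above the highest middle-aged share (1.82% and 1.81%). P2rx1, most of that sum, averaged 1172 TPM in middle-aged and 932 TPM in untreated old bladders, which by itself raises the other shares. In TPM both genes overlapped between the groups. P2rx4 was 19.5 to 21.2 TPM in middle-aged and 20.9 to 25.4 TPM in untreated old bladders. P2rx7 was 17.6 to 20.8 TPM and 20.2 to 26.2 TPM.

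Between untreated old and middle-aged bladders, 5 of the 10 genes differed (edgeR quasi-likelihood test, Benjamini-Hochberg adjusted p under 0.05 over 17156 genes). P2rx7, P2rx4 and P2rx5 were higher in old bladders, while P2rx1 and Nt5e were lower. Over all genes tested 24% were called in either direction. The 10 genes had a median of 0.02 on the log2 scale, against -0.00 over all genes tested. Of the 5 channels 3 rose and 1 fell, none of the 3 P2Y receptors was called, and 1 of the 2 ectonucleotidases fell. In whole bladders, fewer cells of a type and less RNA per cell cannot be told apart.

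P2rx1, the detrusor ATP channel, stood at 868, 792, 917, 988 and 831 CPM in the 5 middle-aged bladders. In the 6 untreated old bladders it ranged from 663 to 759 CPM with a median of 707 CPM. Every old bladder was below every middle-aged bladder, a separation found for 15.8% of all genes tested. Its mean fell from 879 ± 76.6 CPM (SD, n = 5) to 709 ± 36.7 CPM (SD, n = 6), a log2 fold change of -0.29 (SE 0.057, adjusted p = 0.00296 by edgeR). The call held when any 1 bladder was left out.

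P2rx7 moved the other way. Its levels were 30.2, 34.2, 30.5, 31.6 and 31.6 CPM in middle-aged bladders and 35.6 to 44.5 CPM (median 38.0) in untreated old bladders. The groups did not overlap in CPM, a separation found for 15.8% of all genes tested, but they did overlap in TPM. The highest value belonged to old replicate 3. The log2 fold change was 0.31 (SE 0.0574, adjusted p = 0.00191 by edgeR), with means of 31.6 ± 1.55 CPM (SD, n = 5) and 38.6 ± 3.15 CPM (SD, n = 6). This call too held when any 1 bladder was left out.

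P2rx4, next to P2rx7 on chromosome 5, was 42.8, 40.4, 39.3, 40.9 and 40.3 CPM in middle-aged bladders and 42.2 to 50.6 CPM (median 44.0) in untreated old bladders. The 2 groups overlapped narrowly, between 42.2 and 42.8 CPM. The difference was smaller, with a log2 fold change of 0.17 (SE 0.0517, adjusted p = 0.0303 by edgeR). It was lost without middle-aged replicate 3 (adjusted p = 0.0800), 4 (0.0553) or 5 (0.0697) or old replicate 6 (0.0640), and also with limma on the deposited normalized table (adjusted p = 0.136).

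P2rx5, a channel found in muscle and lymphocytes, was 3.21, 1.91, 2.57, 3.62 and 3.45 CPM in middle-aged bladders. In untreated old bladders it spread from 2.80 to 6.40 CPM (median 4.56), so the groups overlapped. It had the largest fold change of the 10 genes in this comparison, 0.68 on the log2 scale (SE 0.210, adjusted p = 0.0315 by edgeR), and the widest interval among the 5 called, 0.23 to 1.14. That call was lost without middle-aged replicate 1 (adjusted p = 0.0516), 2 (0.0668) or 3 (0.0794) or old replicate 3 (0.0506), 5 (0.0642) or 6 (0.0689).

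Nt5e, which makes adenosine from AMP, was 106, 99.1, 108, 91.8 and 106 CPM in middle-aged bladders and 80.2 to 97.5 CPM (median 83.9) in untreated old bladders. Old replicates 4 and 5, at 97.5 and 96.3 CPM, fell inside the middle-aged range. The log2 fold change was -0.21 (SE 0.0605, adjusted p = 0.0247 by edgeR). Leaving out middle-aged replicate 1 (adjusted p = 0.0602), 3 (0.0663) or 5 (0.0611) or old replicate 1 (0.0562), 2 (0.0517) or 3 (0.0559) ended the call.

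Among the genes not called, P2ry6 was 12.9, 11.7, 11.3, 13.3 and 11.0 CPM in middle-aged bladders and 11.6 to 21.0 CPM (mean 14.7 ± 3.28, SD, n = 6) in untreated old bladders. Its log2 fold change of 0.31 (95% interval 0.03 to 0.59) had an adjusted p of 0.0978 by edgeR, and the highest value was again old replicate 3. Entpd1 had a log2 fold change of -0.04 (-0.13 to 0.06), P2ry1 of -0.08 (-0.31 to 0.15) and P2ry2 of -0.11 (-0.27 to 0.04). For P2rx3, at 17 to 28 counts per untreated old bladder, the interval ran from -0.30 to 0.45, so changes of either sign within it are not excluded.

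**Figure D2:**
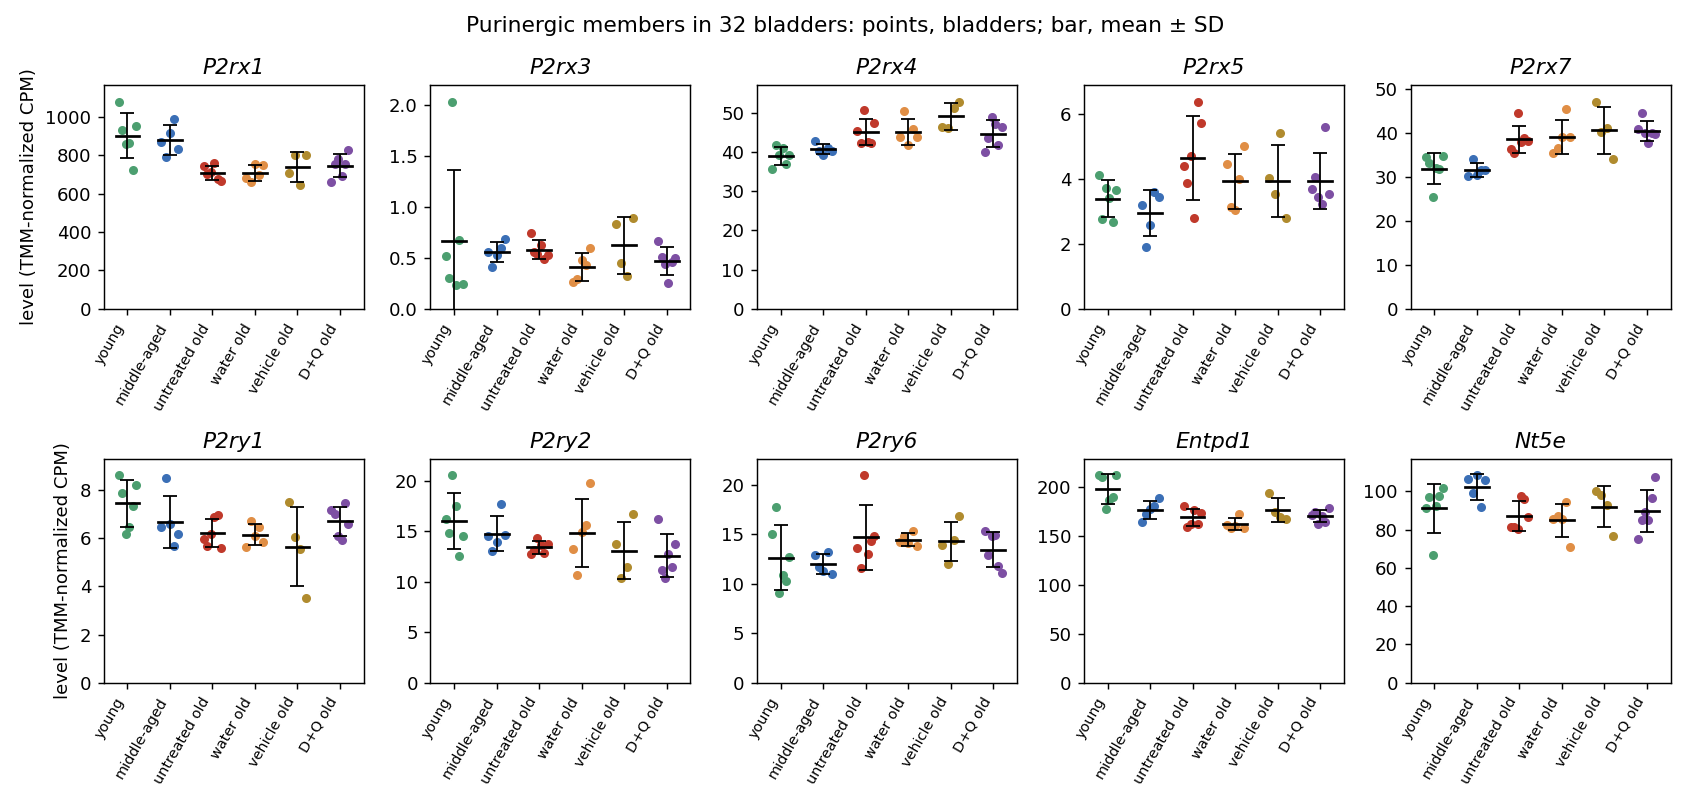
TMM-normalized CPM of the 10 genes in each of the 32 bladders (points) with the mean and SD of each group (bars), on axes that start at 0. In P2rx1 all 6 untreated old bladders lie below the middle-aged range, and in P2rx7 all 6 lie above it. Of all genes tested, 15.8% did not overlap between these groups in CPM.

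The step from young to middle-aged bladders changed none of the 10 genes by edgeR, against 10.8% of all genes called. At an unadjusted p under 0.05, which 27.2% of all genes had, Entpd1 alone of the 10 passed, with a log2 fold change of -0.18 (SE 0.0563, adjusted p = 0.0597). DESeq2 called Entpd1 in this comparison (adjusted p = 0.0193). P2rx1 differed by -0.05 (95% interval -0.24 to 0.15), and P2rx7 by -0.03 (-0.19 to 0.13), on the log2 scale. Nt5e was at 66.5 to 102 CPM (median 94.5) in young bladders, and its difference of 0.16 (-0.04 to 0.35) was not called.

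Against the same untreated old bladders, the young bladders gave 4 calls, where 25.1% of all genes were called. P2rx1 was lower in old bladders (log2 fold change -0.34, SE 0.0820, adjusted p = 0.00777 by edgeR), from 722 to 1079 CPM (median 899) in the young. Young replicate 5, at 722 CPM, was inside the old range. P2rx4 ranged from 35.6 to 41.7 CPM in young bladders, below all 6 old bladders, where 12.8% of all genes did not overlap, and its log2 fold change was 0.22 (SE 0.0584, adjusted p = 0.0154). P2rx7 ranged from 25.4 to 34.7 CPM, also below all 6, with a log2 fold change of 0.27 (SE 0.0755, adjusted p = 0.0173), although limma on the deposited table did not call it (adjusted p = 0.0558). The fourth was Entpd1, which fell from 198 ± 15.1 CPM (SD, n = 6) to 169 ± 8.92 CPM (SD, n = 6), a log2 fold change of -0.23 (SE 0.0557, adjusted p = 0.00936). Markers moved in this comparison too. Of 7 detrusor smooth muscle markers 3 were lower in untreated old than in young bladders, with a median log2 fold change of -0.31 over the 7. Of 6 endothelial markers 4 were lower and 1 higher, with a median of -0.25. Of 7 macrophage markers 2 were higher and none lower, with a median of 0.33, and all 6 B cell and all 6 T cell markers were higher. The medians stand against -0.00 over all genes tested. The part of these markers in the P2rx1, P2rx4, P2rx7 and Entpd1 differences was not tested. None of the 4 calls was lost when a bladder was left out, young replicate 3 included.

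Gavage was compared within old mice next. None of the 10 genes was called by edgeR in water-treated, vehicle-treated or D + Q-treated old bladders against untreated old bladders, nor in D + Q-treated against vehicle-treated or water-treated ones. None reached an unadjusted p under 0.05 in any of the 5 comparisons, and DESeq2 called none. That unadjusted threshold was passed by 16% of all genes for water, 8.39% for vehicle and 12.9% for D + Q against untreated, and by 4.18% and 7.82% for D + Q against vehicle and water. Of all genes tested, edgeR called 1% with water against untreated and 0% in the other 4 comparisons, so few calls of any gene were made. The first 3 of these share the untreated old bladders.

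P2rx1 after D + Q ranged from 662 to 829 CPM (median 754), across the untreated old range. Its log2 fold change against untreated old bladders was 0.07 with a 95% interval of -0.05 to 0.19. The fall from middle-aged to untreated old bladders had an interval of -0.41 to -0.16. P2rx1 was 681, 662, 755, 697 and 747 CPM with water and 708, 802, 645 and 800 CPM with vehicle, which overlapped the untreated old bladders as well.

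P2rx7 after D + Q was 37.8 to 44.7 CPM (median 40.1), with a log2 fold change of 0.07 (95% interval -0.05 to 0.19) against untreated and 0.00 (-0.16 to 0.17) against vehicle. With water it was 35.4, 36.7, 39.1, 45.5 and 39.1 CPM, and with vehicle 47.2, 40.3, 41.1 and 34.1 CPM. P2rx4 differed by -0.02 (-0.15 to 0.11) between D + Q and untreated old bladders and by -0.13 (-0.28 to 0.01) between D + Q and vehicle. P2rx5 differed by -0.25 (-0.65 to 0.16) from untreated, and Nt5e by 0.04 (-0.13 to 0.21). Among the 10 genes the smallest unadjusted p in the 5 comparisons was 0.0518, for P2rx3 with water, which rests on few counts.

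Each gavaged old group was also set against the middle-aged bladders. The 4 old groups share those 5 bladders, so their values are given side by side. With water 4 genes were called, on a background of 13.3% of all genes. P2rx1 differed by -0.31 on the log2 scale (adjusted p = 0.00651 by edgeR) and P2rx7 by 0.32 (adjusted p = 0.00784), both without overlap, where 11.3% of all genes did not overlap. P2ry6 differed by 0.27 (adjusted p = 0.0202) and Nt5e by -0.27 (adjusted p = 0.0345). The P2ry6 call was lost without middle-aged replicate 3 (adjusted p = 0.0588) or 5 (0.0578) or water replicate 4 (0.0514). The Nt5e call was lost without middle-aged replicate 1 (0.0849), 2 (0.0620), 3 (0.0861) or 5 (0.0834) or water replicate 1 (0.0594), 2 (0.0501) or 3 (0.0555).

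With vehicle, P2rx4 (log2 fold change 0.29, adjusted p = 0.0254 by edgeR) and P2rx7 (0.38, adjusted p = 0.0291) were called, where 4.54% of all genes were. P2rx4 was 46.3, 46.2, 51.2 and 52.8 CPM with vehicle, above all middle-aged bladders, where 8.78% of all genes did not overlap. Vehicle replicate 4 put P2rx7 at 34.1 CPM, inside the middle-aged range. Both calls depended on single bladders. P2rx4 was lost without middle-aged replicate 2 (adjusted p = 0.0637), 3 (0.0761), 4 (0.0515) or 5 (0.0731), and P2rx7 without middle-aged replicate 1 (0.0730), 3 (0.0816), 4 (0.0553) or 5 (0.0792) or vehicle replicate 2 (0.0577) or 3 (0.0505). P2rx1, at -0.23 (adjusted p = 0.137), was not called.

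With D + Q, P2rx7 was higher than in middle-aged bladders by 0.37 on the log2 scale (SE 0.049, adjusted p = 0.000336 by edgeR), without overlap (8.87% of all genes), and P2rx1 was lower, with a log2 fold change of -0.23 (SE 0.0651, adjusted p = 0.0377), where 12.1% of all genes were called. The P2rx7 call held when any 1 bladder was left out. That of P2rx1 was lost without middle-aged replicate 1 (adjusted p = 0.0666), 3 (0.0940), 4 (0.0834) or 5 (0.0537) or D + Q replicate 1 (0.0803), 2 (0.0583), 4 (0.0875) or 5 (0.0591).

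Across all 21 old bladders, whatever their treatment, P2rx7 lay above the highest middle-aged value in 20, with vehicle replicate 4 the exception. P2rx1 lay below the lowest middle-aged value in 18 of 21, all but vehicle replicates 2 and 4 and D + Q replicate 6. P2rx4 and P2ry6 each lay above the middle-aged range in 15 of 21 and P2rx5 in 13 of 21, while Nt5e lay below it in 13 of 21. For Entpd1 it was 8 below and 1 above. Every old group was set against the same middle-aged bladders, so these counts are not separate replications of the age difference. The share of all genes with counts like these was not determined.

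**Figure D3:**
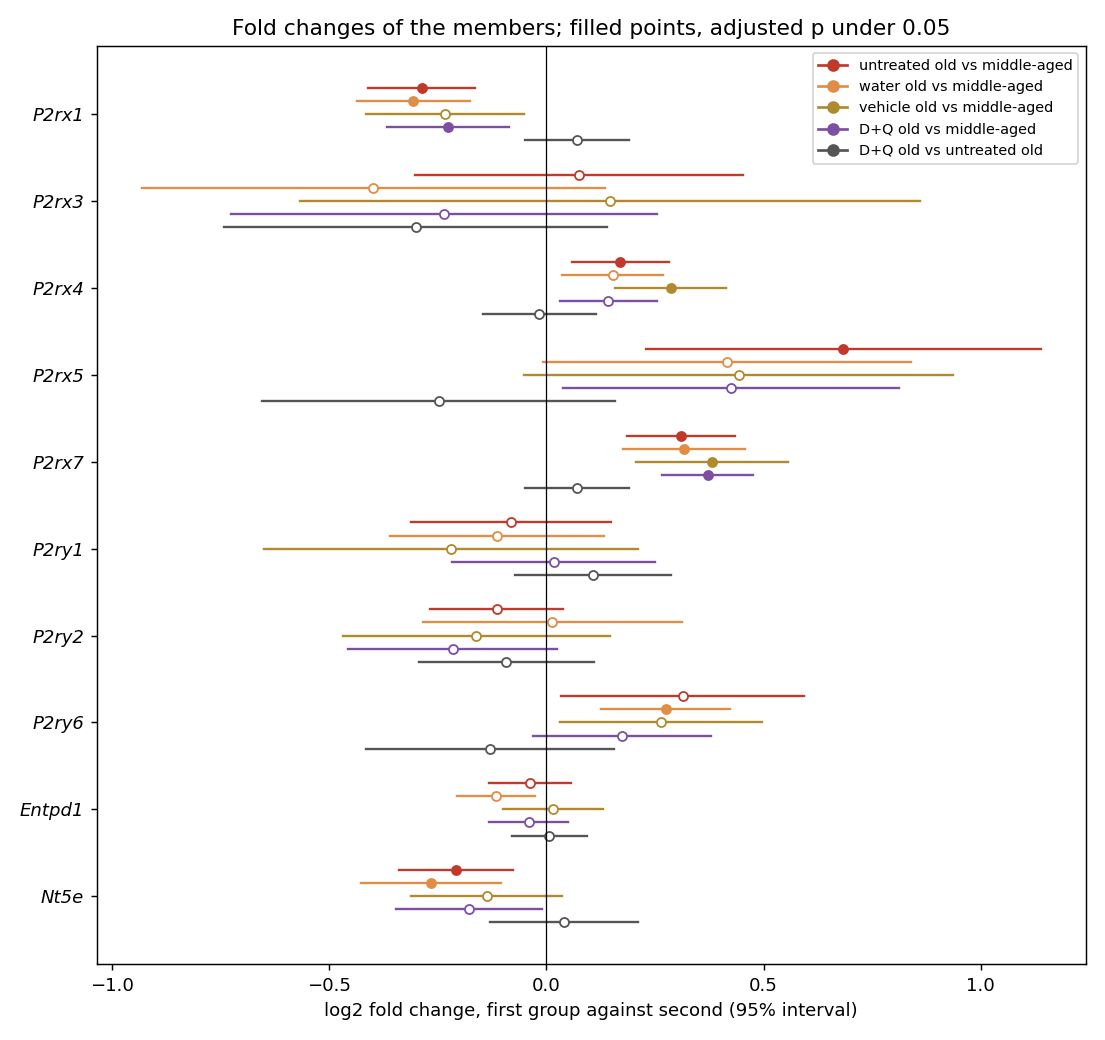
Log2 fold changes of the 10 genes with 95% intervals in 5 comparisons, with filled points where the adjusted p was under 0.05. P2rx7 is to the right of 0 in all 4 old groups against middle-aged, and its interval spans 0 for D + Q against untreated old bladders.

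The genes were then set beside markers of the cell types that a whole bladder holds. Between untreated old and middle-aged bladders, 2 of 7 detrusor smooth muscle markers were lower, the myosin gene Myh11 (log2 fold change -0.24) and Smtn (-0.32), and 5 were not called. Their summed level was 27194 to 38246 CPM in middle-aged and 27540 to 31856 CPM in untreated old bladders. P2rx1 relative to the mean log2 level of these markers was -1.97 (-2.08 to -1.84) in middle-aged and -2.18 (-2.37 to -2.08) in untreated old bladders. The ranges meet at -2.08. Young bladders were at -2.04 (-2.15 to -1.88), a range that overlapped both. The part of smooth muscle markers in the P2rx1 difference was not tested.

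P2rx4, P2rx7 and P2ry6 were set beside macrophage markers. Of 7 macrophage markers 6 were higher in untreated old bladders, by 0.22 for Csf1r up to 0.95 for C1qb on the log2 scale, and their sum was 428 to 508 CPM in middle-aged and 571 to 917 CPM in old bladders. Old replicate 3, which had the highest P2rx4, P2rx7 and P2ry6 of the untreated old bladders, was the bladder at 917 CPM. Vehicle replicate 1 had the highest P2rx7 of the 32 bladders (47.2 CPM) at a macrophage sum of 526 CPM, the lowest of the old bladders. That library also correlated least with the median of its group (r = 0.974). Vehicle replicate 4 had the lowest P2rx7 of the old bladders (34.1 CPM) at 749.5 CPM, and young replicate 2 had P2rx7 at 33.1 CPM with a sum of 825 CPM. P2rx7 relative to the macrophage markers, on the log2 scale, was -0.90 (-1.01 to -0.78) in middle-aged and -1.12 (-1.38 to -0.93) in untreated old bladders. P2rx4 was -0.54 (-0.66 to -0.42) and -0.89 (-1.19 to -0.75), and P2ry6 was -2.29 (-2.52 to -2.19) and -2.52 (-2.65 to -2.46). Young bladders were at -1.07 (-1.66 to -0.74) for P2rx7, -0.78 (-1.33 to -0.42) for P2rx4 and -2.43 (-2.63 to -2.21) for P2ry6. These young ranges overlapped both other groups. In the D + Q-treated bladders the macrophage sum was 564 to 629 CPM, above the middle-aged range. All 6 B cell and all 6 T cell markers were also higher in untreated old bladders, with T cell sums of 9.25 to 12.2 CPM in middle-aged and 32.7 to 73.2 CPM in old bladders. The part of immune cell markers in the P2rx4, P2rx5, P2rx7 and P2ry6 values was not tested.

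Nt5e relative to fibroblast markers was -2.76 in middle-aged and -2.80 in untreated old bladders on the log2 scale. Those markers summed to 7773 to 9683 CPM and 7193 to 8382 CPM, and 1 of 6 was lower in old bladders. In young bladders the markers summed to 11013 to 19039 CPM and Nt5e relative to them was -3.39 (-3.63 to -3.11), below both other groups. Entpd1, an ectonucleotidase of endothelium and leukocytes, was at 1.88 in middle-aged and 1.91 in untreated old bladders relative to endothelial markers on the same scale. The sums of these markers were 313 to 352 CPM and 305 to 349 CPM. In young bladders the sum was 351 to 372 CPM and Entpd1 relative to the markers was 1.94 (1.79 to 2.05).

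**Figure D4:**
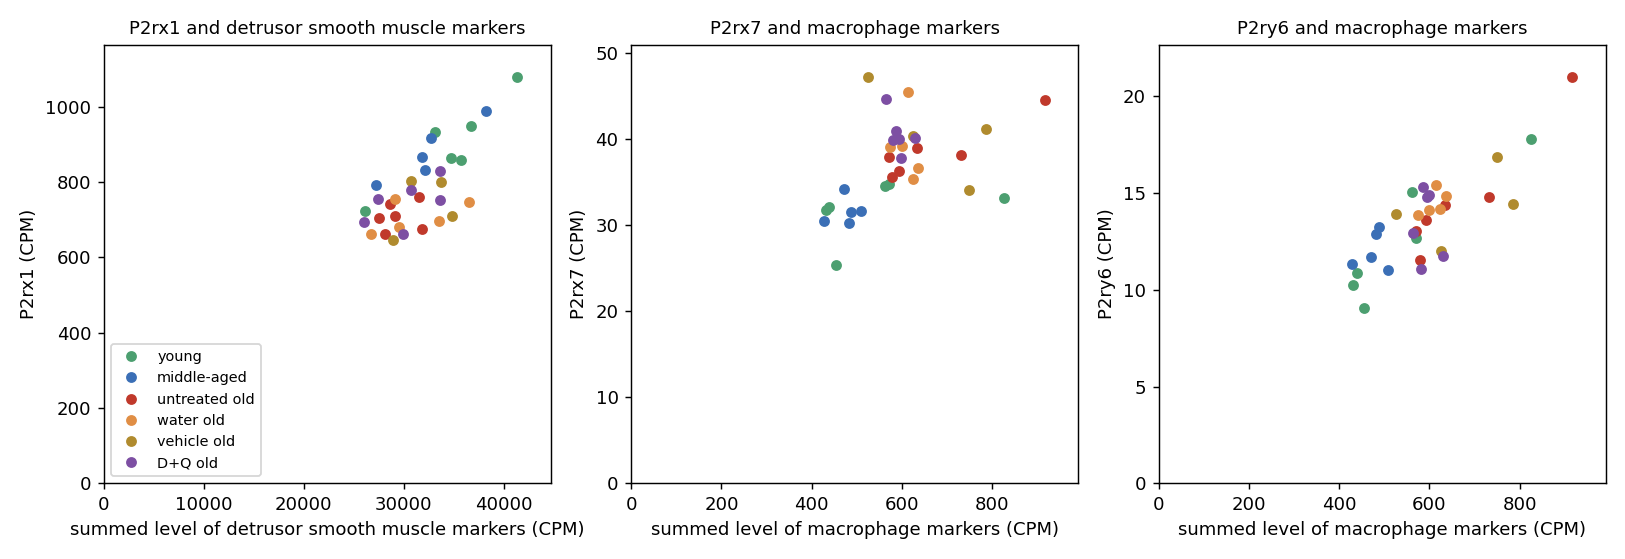
CPM of P2rx1, P2rx7 and P2ry6 in each bladder against the summed CPM of smooth muscle or macrophage markers. All 6 untreated old bladders have lower P2rx1 than the 5 middle-aged bladders, within the range of their muscle marker sums. Untreated old replicate 3 is the rightmost point in both macrophage panels, at 917 CPM. The bladder with the highest P2rx7, vehicle replicate 1, lies at 47.2 CPM and a sum of 526 CPM.

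The genes whose pattern over the 32 bladders was most like each receptor were named by Pearson's r of log2(CPM + 0.1), among 14890 genes. The bladders share their libraries and the group differences, so r after centring each group on its mean is given as well. P2rx1 was closest to Smtn, a smooth muscle structural gene (r = 0.892, and 0.734 after centring). P2rx4 was closest to Apoe (0.892 and 0.852), P2ry6 to the Fc receptor gene Fcgr1 (0.849 and 0.864), and P2rx7 to the retinaldehyde dehydrogenase gene Aldh1a3 (0.848 and 0.644). P2rx5 was closest to the muscle small heat shock gene Hspb7 (0.780 and 0.701), followed by the heat shock gene Hsp90aa1 (0.729 and 0.664). Entpd1 was closest to Rdx (0.846 and 0.652), P2ry1 to Slc25a17 (0.834 and 0.819), P2ry2 to Kcnf1 (0.805 and 0.819), and Nt5e to Ap4m1 (0.765 and 0.735).

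The rest of the pathway was followed in 28 further genes, of which 26 passed the filter for untreated old against middle-aged. Of these, 8 were higher and 7 lower in old bladders by edgeR, where 13% of all genes were higher and 11% lower. Their median log2 fold change was -0.02 against -0.00 over all genes tested. P2ry4 and Entpd8 were too low to be tested.

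Another 5 genes were grouped by their P2ry symbol alone, whatever ligand the receptor binds. All 4 tested were higher, namely P2ry10 by a log2 fold change of 2.18, P2ry13 by 0.73, P2ry14 by 0.72 and P2ry12 by 0.26. P2ry10, a receptor of lymphocytes, was 1.93, 1.69, 1.41, 1.02 and 1.24 CPM in middle-aged bladders and 4.90 to 8.73 CPM (median 6.25) in untreated old bladders. The P2ry12 call was lost without middle-aged replicate 1, 3 or 5 or old replicate 2, 3, 5 or 6, with an adjusted p of up to 0.0947. Of the P2X genes, P2rx6 was lower, from 9.86, 8.27, 9.38, 8.17 and 8.71 CPM to 4.75 to 5.74 CPM (median 5.14), a log2 fold change of -0.74. Among the adenosine receptors Adora2a was higher (0.90) and Adora2b lower (-0.42), while Adora1 and Adora3 were not called.

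The enzymes and transporters moved in both directions. Of 5 other ectonucleotidases tested, 3 were lower in untreated old bladders, Enpp3 by a log2 fold change of -0.48, Alpl by -0.24 and Entpd3 by -0.14. Among the genes of ATP release only Slc17a9, the vesicular nucleotide transporter, was called, and it was higher by 0.74. The nucleoside transporter Slc28a2 was higher by 1.37, from 4.45, 4.20, 4.18, 3.39 and 4.14 CPM to 7.90 to 11.8 CPM (median 10.9), and Pnp, which breaks down purine nucleosides, was higher by 0.26. Slc29a1, the main equilibrative nucleoside transporter (-0.35), and Adk, which turns adenosine back into AMP (-0.20), were lower.

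**Figure D5:**
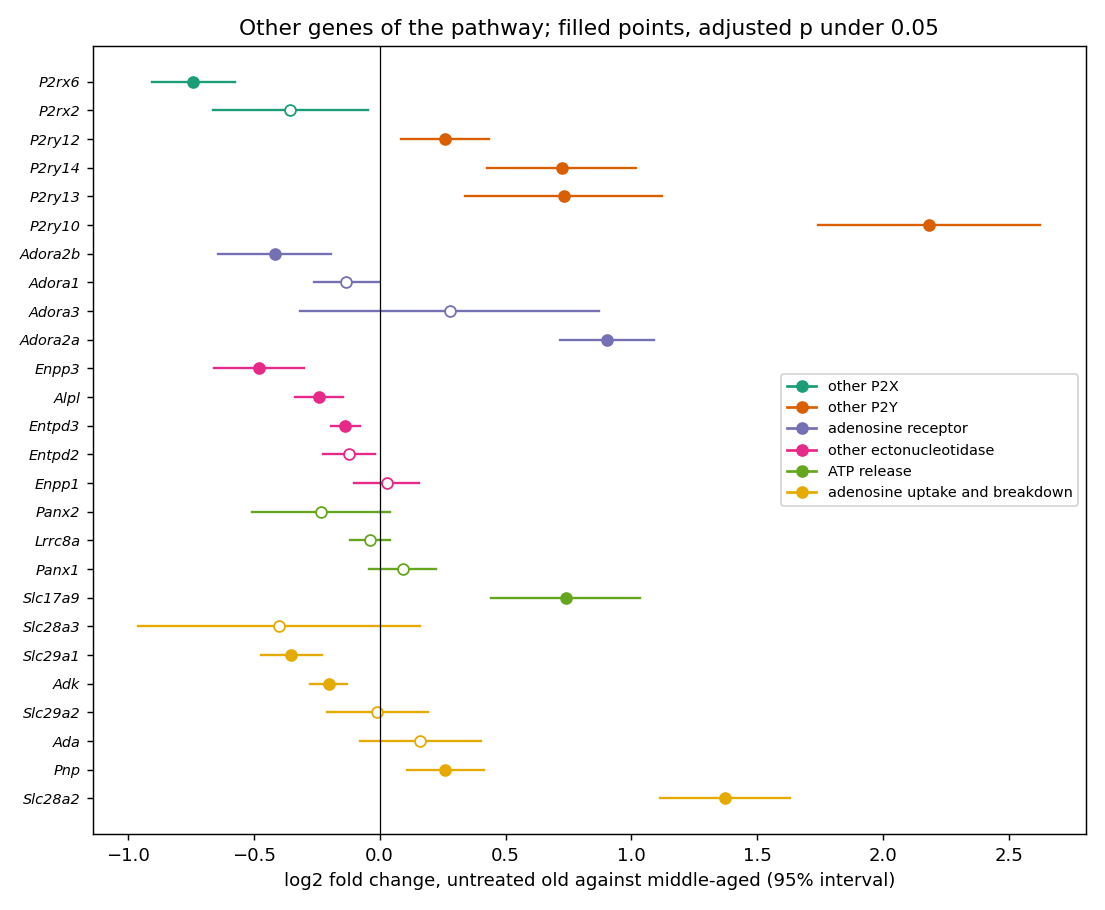
Log2 fold changes with 95% intervals of 26 further pathway genes between untreated old and middle-aged bladders, coloured by role, with filled points where the adjusted p was under 0.05. P2ry10 at 2.18 and Slc28a2 at 1.37 lie farthest right and P2rx6 at -0.74 farthest left.

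From young to middle-aged bladders 3 of the 26 tested pathway genes were called, where 10.8% of all genes were, namely Alpl (log2 fold change 0.42) and Entpd3 (0.35) higher and Slc17a9 (-0.79) lower. In untreated old against the same middle-aged bladders they were at -0.24, -0.14 and 0.74. Sampling error in those shared bladders enters the 2 differences with opposite sign, so the change of sign is no separate result. In D + Q-treated against middle-aged bladders 6 were higher and 5 lower of 26 tested, where 7.58% and 4.55% of all genes were, with P2ry10 by 1.60 and Slc28a2 by 0.69. With D + Q set against no treatment, edgeR called none of the 26 and 9 had an unadjusted p under 0.05, which 12.9% of all genes had. Slc28a2 had the smallest, at -0.67 on the log2 scale (adjusted p = 0.240), from 4.19 to 8.87 CPM (median 6.29) after D + Q. With water it was 5.48 to 16.6 CPM and with vehicle 4.34 to 18.2 CPM, which overlapped both.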

How the data were processed

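Total RNA of 32 bladders was sequenced with a stranded total RNA kit. The authors aligned the reads to mm10 and deposited raw counts per gene with each gene's summed exon length, and the submitters' processing notes name STAR 2.7.3 and Subread. They also deposited log2 values in a normalized table, here found to be the log2 of length-scaled counts with 1 added, scaled to a sum of 1e+05. Columns were matched to samples by name. Replicate numbers are those of the titles and differ from the numbers in some middle-aged, water and vehicle column names.

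Counts were compared between 2 groups at a time with edgeR 4.0.16 in R 4.3.3 (TMM, filterByExpr, quasi-likelihood test, Benjamini-Hochberg adjustment over all genes tested, threshold 0.05). Each library is a separate bladder. Intervals are 95% intervals of the log2 fold change. A count of 3 was the detection floor, above which all 10 genes lay in every bladder, and floors cover counting error only. Marker levels are means of log2(CPM + 0.1). The alternatives were relative log expression (RLE) size factors, DESeq2 1.42.0, 2 other filters, all 6 groups together, limma 3.58.1 on the deposited values, a block for the replicate number, and 97 refits without 1 bladder. The exact test planned for any of the 10 genes under the filter was not run, since all 10 passed it, and other listed genes under the filter were not tested. The 10 genes, the other lists and the comparisons were chosen with earlier results of these data known. The genes named are all 10, the other pathway genes past the threshold or next to them in role, and the genes most alike in pattern. The result of 1 marker list is not reported here.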

Additional observations from a re-analysis of the deposited data

Results flagged for a closer look

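A value far from the rest of its group was found in 6 of the 60 combinations of gene and group examined (Dixon's test, which chance passes in about 1 of 20). Of the 6, 3 were in young replicate 3, the shallowest library. P2rx3 stood at 2.03 CPM there (30 counts), above 0.239 to 0.675 CPM in the other young bladders. P2rx7 was at 25.4 CPM, below 31.7 to 34.7 CPM, and Nt5e was at 66.5 CPM, below 91.4 to 102 CPM. P2ry6 was at 21.0 CPM in untreated old replicate 3, above 11.6 to 14.8 CPM in the other untreated old bladders, and that bladder also had the highest macrophage marker sum, 917 CPM. P2rx5 was at 5.62 CPM in D + Q replicate 5, above 3.24 to 4.06 CPM. Entpd1 was at 173 CPM in water replicate 4, above 158 to 161 CPM.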

How the results depend on the processing

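No fold change of a called gene turned its sign under any alternative. Under alternatives other than leaving out a bladder, 104 values stayed past the threshold and 15 lost the call, and without 1 bladder 139 stayed and 44 lost it. For untreated old against middle-aged bladders 5 genes were called, 3 with all 6 groups in a single fit and 2 to 5 without 1 bladder. P2rx1 and P2rx7 were called under each of these. Between middle-aged and young bladders none was called, but 1 with DESeq2, 1 with all 6 groups together and 0 to 1 without 1 bladder, the 1 appearing without young replicate 3 or 4. Between untreated old and young bladders the count was 4, and 4 to 5 without 1 bladder. Against middle-aged bladders, water gave 4 genes, 2 with all 6 groups and 2 to 4 without 1 bladder, vehicle gave 2, 1 with limma and 0 to 2 without 1 bladder, and D + Q gave 2, 1 with all 6 groups and 1 to 3 without 1 bladder. The causes were not tested. Water, vehicle and D + Q against untreated old bladders gave 0 calls with any 1 bladder left out. Leaving out a bladder was not run for D + Q against vehicle or water, since the number of refits was limited.

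With the replicate number as a block, 2 genes were called between untreated old and middle-aged bladders, P2rx1 and P2rx7, 3 between untreated old and young, and 0, 3 and 3 for vehicle, water and D + Q against middle-aged. Same-numbered bladders correlated in their deviations at -0.316 to 0.258. The title numbers differ from those in the column names for some middle-aged, water and vehicle bladders. Whether bladders were paired can therefore not be told from these values. P2rx3, at 0.681 TPM, was limited by its counts.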

Other observations

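The markers of other cell types, counted between untreated old and middle-aged bladders, gave 3 of 7 urothelial markers lower, the uroplakin genes Upk1a (log2 fold change -0.15), Upk2 (-0.23) and Upk3a (-0.19). None of 5 mast cell markers was called by edgeR, with none at an unadjusted p under 0.05. Of 6 endothelial markers Vwf was higher (0.32) and Cdh5 (-0.19) and Tie1 (-0.20) were lower.

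After Hspb7 was seen to follow P2rx5, 7 skeletal muscle genes were examined. Hspb7 itself was 72.4 to 93.3 CPM in middle-aged and 84.4 to 138 CPM in untreated old bladders, with a log2 fold change of 0.50 (edgeR adjusted p = 0.00916). The others did not move one way. Myh1 was higher (1.26), Ckm (-0.33) and Mylk2 (-1.32) were lower, Acta1 (-0.31) and Tnnt3 (-0.02) were not called, and Myh4 was too low to be tested. Myh1 rested on 7 to 65 counts per bladder and Mylk2 on 9 to 33. The summed level of all 7, Hspb7 included, was 550 to 868 CPM in middle-aged and 518 to 587 CPM in untreated old bladders. Most of it was Acta1, with means of 429 and 341 CPM, while Myh1 averaged 0.595 and 1.44 CPM. Whether the sum measures skeletal muscle in these bladders was not tested. The part of these genes in the P2rx5 values was not tested.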
